A study of Mus musculus with 12 samples.

Results

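The genes described here are 10 of the 55335 genes in an FPKM table of mouse bone marrow-derived macrophages (BMDMs). Il6, Lif and Osm encode ligands of the IL-6 family, and Il12a, Il12b, Il23a, Il27 and Ebi3 encode subunits of the IL-12 family. Il10 encodes IL-10, and Il10ra encodes the ligand-binding chain of its receptor. They were taken by symbol, and 9 of them were among the 12622 genes tested. FPKM is the number of fragments assigned to a gene, divided by the gene's length and by the mapped fragments of the library.

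IL-6, LIF and OSM signal through receptors that share the chain gp130, encoded by Il6st. The IL-12 family is made of paired subunits: IL-12 joins the products of Il12a and Il12b, IL-23 those of Il23a and Il12b, and IL-27 those of Il27 and Ebi3. IL-10 acts on macrophages through STAT3 and restrains the LPS-induced transcription of many cytokine genes, Il6 and Il12b among them.

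RNA was sequenced from wild-type BMDMs and from BMDMs of mice lacking Nlrp3, which encodes the sensor of an inflammasome, each without stimulus or after LPS, which primes the inflammasome, followed by ATP, which triggers it. The 12 libraries fell into 4 groups of 3: wild-type control, wild-type with LPS+ATP, Nlrp3-/- control and Nlrp3-/- with LPS+ATP. The mice were C57BL/6 and aged 8 weeks. Their marrow was grown with the growth factor M-CSF, and adherence was the criterion for a BMDM. The sample labels gave LPS for 4 h and ATP for 30 min, while the study's methods gave longer exposures to both agents. The labels did not say whether the libraries of a group came from separate mice or cultures, so every p-value measures the spread between these libraries only. Summed FPKM was between 283278 and 299393 per library. Read counts were not given, and the depth relative to the shallowest library, estimated from the smallest steps between values, was between 1 and 1.22.

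Nlrp3 was at 9.24, 9.71 and 10.1 FPKM in the wild-type control libraries and at 32.1, 33.0 and 33.6 FPKM in those with LPS+ATP, and its value was 0 in all Nlrp3-/- libraries. The genotypes also differed in sex-linked RNA: Xist ranged from 32.8 to 56.3 FPKM with the Nlrp3-/- genotype and did not exceed 0.0416 FPKM in wild-type cells, while the Y-linked genes Ddx3y, Kdm5d, Uty and Eif2s3y had values of 0 throughout the Nlrp3-/- libraries and above 0 throughout the wild-type ones. Sex and genotype cannot be told apart in these libraries. Nnt, which some C57BL/6 substrains lack in part, was between 4.09 and 10.3 FPKM in wild-type and between 0.670 and 1.47 FPKM in Nlrp3-/- libraries.

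RNA of marker genes of other cell types differed between the genotypes as well. The 6 fibroblast markers summed to 157, 162 and 160 FPKM in wild-type control and to 1175, 1182 and 1165 FPKM in Nlrp3-/- control, and to 181, 183 and 182 FPKM against 898, 891 and 907 FPKM with LPS+ATP. Col1a1 was the most abundant of them, and 5 of the 6 were called higher in Nlrp3-/- control and 4 of the 6 with LPS+ATP. The 7 granulocyte markers summed to 233, 247 and 265 FPKM in wild-type control and to 1461, 1416 and 1432 FPKM in Nlrp3-/- control, and to 308, 318 and 307 FPKM against 622, 623 and 623 FPKM with LPS+ATP. S100a9 was the most abundant by the mean of the 12 libraries, Ly6g was never above 1 FPKM, and 6 of the 6 tested granulocyte markers were called higher in Nlrp3-/- control and 3 of the 6 with LPS+ATP. Lcn2, which macrophages also express after LPS, made up much of the granulocyte sums with LPS+ATP, at means of 218 FPKM in wild-type, where S100a9 was at 49.9 FPKM, and 208 FPKM in Nlrp3-/-, where S100a9 was at 267 FPKM. For LPS+ATP against control, 1 of the 6 tested granulocyte markers was called higher and 4 lower in wild-type. In Nlrp3-/- 1 was called higher and 5 lower, and the higher one was Lcn2 in both genotypes. Mpo was under 1 FPKM in every library with LPS+ATP, and Elane and Prtn3 were in those of wild-type. Mpo therefore entered the test through the control libraries, and its calls for LPS+ATP follow in part from that. Of the 6 fibroblast markers 0 were called for LPS+ATP in either genotype. The 8 macrophage markers, led by Cd68, summed to 2240, 2361 and 2272 FPKM in wild-type control, 2306, 2248 and 2296 FPKM in wild-type with LPS+ATP, 1495, 1550 and 1492 FPKM in Nlrp3-/- control, and 1881, 1865 and 1870.1 FPKM in Nlrp3-/- with LPS+ATP. By limma 0 of the 8 were called between the genotypes, although at an unadjusted p under 0.05 there were 6 lower and 0 higher in control and 5 lower and 0 higher with LPS+ATP. For LPS+ATP against control, 2 of the 8 were called higher and 1 lower in each genotype, so the sum joins changes in both directions. Without and with LPS+ATP, Cd68 averaged 1450 and 814 FPKM in wild-type and 877 and 620 FPKM in Nlrp3-/-. Cd14 averaged 111 and 530 FPKM in wild-type and 95.8 and 537 FPKM in Nlrp3-/-. The remaining lists were low in each library, although in control and with LPS+ATP the sums of dendritic, B and mast cell markers were higher in each Nlrp3-/- library than in each wild-type one. Dendritic cell markers summed to at most 5.49 FPKM, with Ccr7 the most abundant and the other 5 of 6 never above 1. B cell markers summed to at most 5.11 FPKM, with Cd79b the most abundant and Ms4a1 never above 1, mast cell markers to at most 3.83 FPKM, with Cpa3 the most abundant and Mcpt4 at 0 throughout, and the 3 T cell markers to at most 0.0905 FPKM. Several of these genes can also be expressed by macrophages or their precursors, and fewer cells of a type and less RNA per cell cannot be told apart in bulk RNA. Which cells carried the cytokine transcripts below was not measured.

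**Figure D1:**
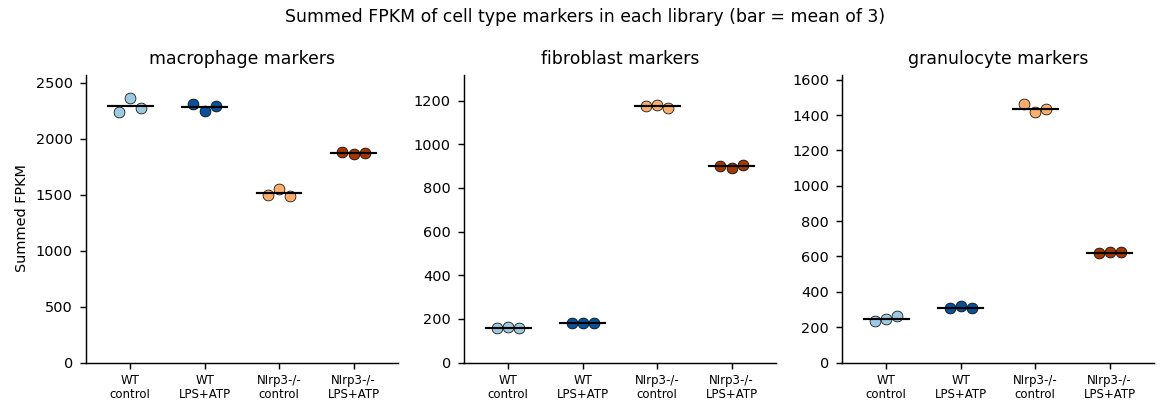
Summed FPKM of the markers of macrophages, fibroblasts and granulocytes in each library (points) with the mean of 3 (bar). In the control libraries the mean fibroblast sum was 159 FPKM for wild-type and 1174 FPKM for Nlrp3-/-.

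A gene was called when its Benjamini-Hochberg adjusted p from limma, fitted on log2(FPKM + 1), was under 0.05 and its log2 fold change was at least 1 in either direction. With LPS+ATP in wild-type BMDMs, 8 of the 9 tested genes were called higher, against 8.25% of all tested genes, and 0 were called lower, against 11.2%. At an unadjusted p under 0.05 there were likewise 8 higher and 0 lower by limma, against 23.8% and 54.0% of all tested genes, and 8 had an adjusted p under 0.05 at any fold, against 76.4% of all tested genes. In Nlrp3-/- BMDMs 6 were called higher, against 6.64%, and 1 lower, against 8.21%, and 9 had an adjusted p under 0.05 at any fold, against 74.3%. At an unadjusted p under 0.05 there were 8 higher and 1 lower, against 21.2% and 55.0%. Il6, Il12a and Il12b were under 1 FPKM in every control library, and Il27 and Il10 reached 1 FPKM in fewer than 3 of them, so these genes entered the test through the libraries with LPS+ATP and their calls for LPS+ATP follow in part from that.

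Between the genotypes without stimulus, 1 of the 9 tested genes was called higher in Nlrp3-/-, against 6.02% of all tested genes, and 0 were called lower, against 0.689%. By limma 6 had an adjusted p under 0.05 at any fold, against 47.8%, and at an unadjusted p under 0.05 there were 4 higher and 2 lower, against 37.0% and 16.7%. With LPS+ATP 1 was called higher, against 4.48%, and 1 lower, against 0.570%, and 5 had an adjusted p under 0.05 at any fold, against 48.5%. At an unadjusted p under 0.05 there were 1 higher and 4 lower, against 39.7% and 14.6%. For the difference between the genotypes in the change with LPS+ATP, termed the interaction below, 0 were called positive, against 0.721%, and 2 negative, against 1.43%. By limma 5 had an adjusted p under 0.05 for it at any fold, against 27.7%, and at an unadjusted p under 0.05 there were 1 positive and 5 negative, against 20.9% and 17.4%. Of the 6 tested granulocyte markers 0 were called positive and 4 negative for the interaction, with a median of -2.10. These shares of all tested genes, and those given for LPS+ATP, also stand beside the counts of the lists below and of the marker lists above. Each LPS+ATP comparison shares a group of libraries with each genotype comparison, so these counts are not independent.

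The choice of scaling moved all tested genes. Median-ratio scaling shifted the median over all tested genes, on the log2 scale, by 0.24 for LPS+ATP in wild-type, 0.24 for LPS+ATP in Nlrp3-/-, -0.16 for genotype in control, -0.17 for genotype with LPS+ATP and -0.01 for the interaction. The median of the 9 tested genes was 3.32 for LPS+ATP in wild-type, where that of all tested genes was -0.25, and 2.89 in Nlrp3-/-, where it was -0.24. For genotype it was 0.23 in control, beside 0.09, and -0.12 with LPS+ATP, beside 0.11, and for the interaction it was -0.33, beside 0.02.

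The summed level of the 10 genes was 61.3 FPKM in wild-type control, 268 FPKM in wild-type with LPS+ATP, 80.0 FPKM in Nlrp3-/- control and 223 FPKM in Nlrp3-/- with LPS+ATP. Ebi3 was the highest of the 10 in each wild-type control library, followed by Il10ra and Osm, and the rest were at 1.19 FPKM or less. In Nlrp3-/- control Ebi3 and Il10ra overlapped at the top. In wild-type with LPS+ATP the order was Ebi3, Il27, Il6 and Il12b, which made 29.5%, 16.4%, 15.5% and 13.8% of the sum. In Nlrp3-/- with LPS+ATP the order was Ebi3, Il6, Lif and Il27, which made 32.7%, 17.1%, 13.4% and 10.6%, and Il12b made 5.41%.

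**Figure D2:**
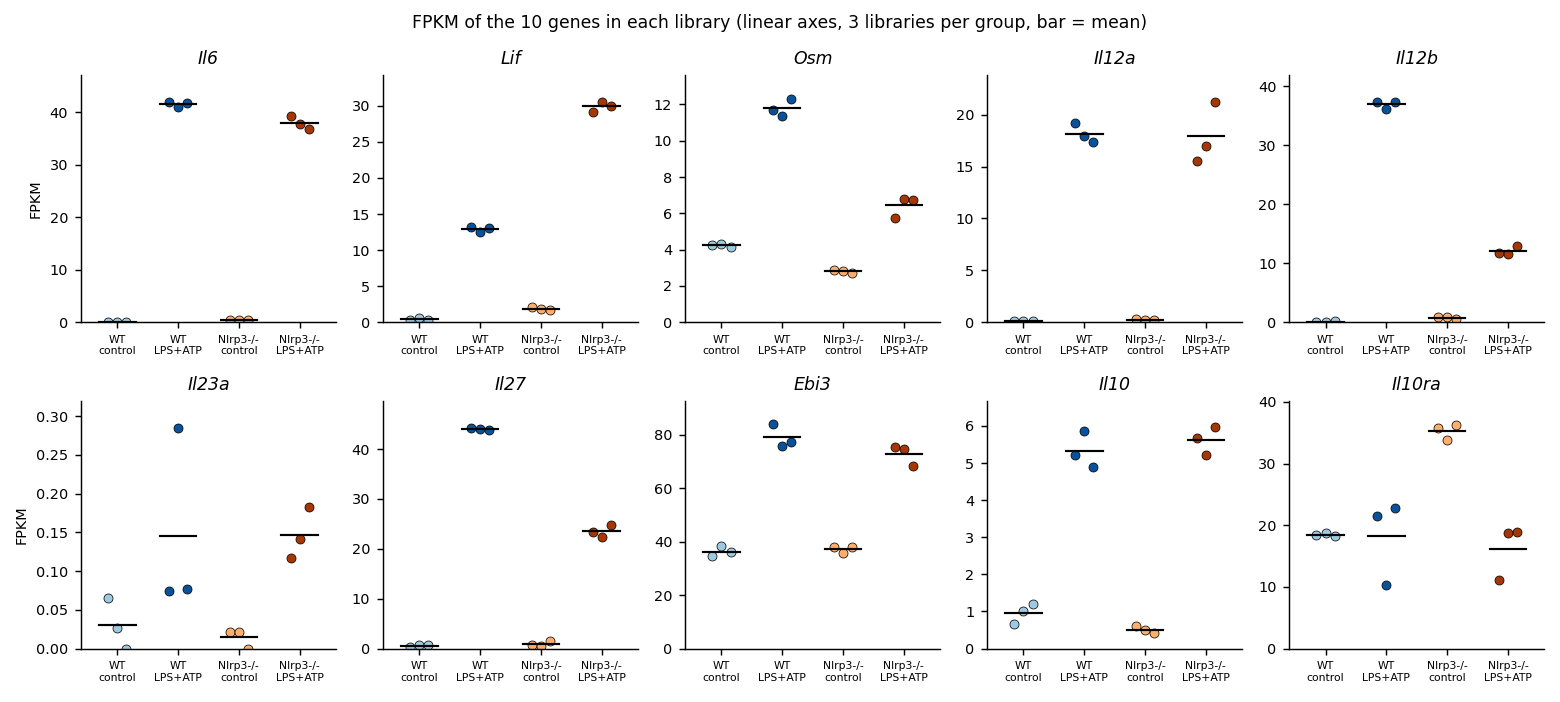
FPKM of each of the 10 genes in each of the 12 libraries (points) with the mean of each group of 3 (bar), each panel on its own axis from 0. With LPS+ATP the Il12b libraries of the genotypes lay apart, at a mean of 36.9 FPKM in wild-type libraries and 12.03 FPKM in Nlrp3-/-, while those of Il12a overlapped.

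Among the IL-6 family ligands, Il6 (ENSMUSG00000025746, chr5:30013114-30019981, plus strand, GRCm38) was nearly absent without stimulus. It was at 0.0821, 0.0180 and 0.0337 FPKM in wild-type control and at 42.0, 41.0 and 41.8 FPKM with LPS+ATP, means of 0.0446 ± 0.0334 and 41.6 ± 0.531 FPKM (SD, n = 3). The Nlrp3-/- libraries held 0.428, 0.363 and 0.486 FPKM in control and 39.3, 37.8 and 36.8 FPKM with LPS+ATP, means of 0.425 ± 0.0612 and 38.0 ± 1.238 FPKM. No library of a group reached into the range of another. The rise was 5.35 on the log2 scale in wild-type (adjusted p 3.06e-15) and 4.77 in Nlrp3-/- (adjusted p 8.11e-15). Without stimulus the Nlrp3-/- libraries stood 0.45 higher (adjusted p 9.4e-06) and with LPS+ATP the difference was -0.13 (95% CI -0.23 to -0.03, adjusted p 0.0371), and between -0.34, after median-ratio scaling, and -0.11 over the alternatives, with an adjusted p between 5.616e-05 and 0.4659. Neither reached the fold limit, although on scales that shrink low values less the control difference was called, at 1.88 with a pseudocount of 0.1 and 1.08 in TPM. In FPKM the control means stood 9.54-fold apart, from wild-type values that correspond to 4, 1 and 2 of the smallest steps seen in those libraries. That fold therefore rests on very few fragments. The interaction was -0.58 (adjusted p 7.17e-05), under the fold limit, and was called on those scales, at -2.01 and -1.19.

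Lif (ENSMUSG00000034394, chr11:4257557-4272514, plus strand) was the gene of the 10 called higher in Nlrp3-/- both without and with LPS+ATP. It was at 0.352, 0.549 and 0.285 FPKM in wild-type control and at 2.10, 1.78 and 1.64 FPKM in Nlrp3-/- control, means of 0.396 ± 0.137 and 1.84 ± 0.238 FPKM. With LPS+ATP it was at 13.2, 12.5 and 13.0 FPKM in wild-type and at 29.2, 30.6 and 30.0 FPKM in Nlrp3-/-, means of 12.9 ± 0.371 and 29.9 ± 0.688 FPKM. The genotypes did not overlap in either condition. The genotype difference was 1.03 in control (95% CI 0.86 to 1.19, adjusted p 5.45e-07) and 1.16 with LPS+ATP (95% CI 0.99 to 1.32, adjusted p 2.55e-07). Both lay close to the fold limit on this scale: relative to the median of all tested genes they were 0.94 and 1.05, and after median-ratio scaling they were 0.88 and 0.95, which were not called. Without wild-type control replicate 3 or without Nlrp3-/- control replicate 1 the control difference was 0.97 or 0.96 and was not called. On scales that shrink low values less, the control difference was larger, at 2.00 with a pseudocount of 0.1 and 1.64 in TPM, and the control means stood 4.65-fold apart. With LPS+ATP Lif rose by 3.32 in wild-type and by 3.45 in Nlrp3-/- (adjusted p 6.47e-12 and 6.16e-12), while in FPKM the means rose 32.6-fold and 16.3-fold. The interaction was 0.13 (adjusted p 0.414), with the opposite sign on other scales, at -0.79 with a pseudocount of 0.1 and -0.42 in TPM. Its adjusted p was between 0.0244 and 0.7335 over the alternatives.

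Osm (ENSMUSG00000058755, chr11:4236420-4241026, plus strand) lies next to Lif, with 16530 bases and 0 annotated genes between them, and stood lower in Nlrp3-/- where Lif stood higher. Control libraries held 4.24, 4.32 and 4.16 FPKM in wild-type and 2.90, 2.82 and 2.73 FPKM in Nlrp3-/-. With LPS+ATP they held 11.7, 11.4 and 12.3 FPKM in wild-type and 5.76, 6.81 and 6.72 FPKM in Nlrp3-/-. No group overlapped another. The genotype difference was -0.46 in control (adjusted p 4.97e-05) and -0.78 with LPS+ATP (95% CI -0.91 to -0.66, adjusted p 6.77e-07), under the fold limit in both, and -0.60 and -0.99 after median-ratio scaling. Osm rose by 1.29 in wild-type (adjusted p 2.43e-09), and its change of 0.96 in Nlrp3-/- (adjusted p 4.28e-08) was just under the fold limit. That change was 1.03 without Nlrp3-/- LPS+ATP replicate 1, 1.18 after median-ratio scaling, 1.16 with a pseudocount of 0.1 and 1.17 in TPM, and was called in each. The interaction was -0.33 (adjusted p 0.0122).

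Of the IL-12 family, Il12b (ENSMUSG00000004296, chr11:44400063-44414033, plus strand) differed most between the genotypes after LPS+ATP. Its libraries with LPS+ATP were at 37.4, 36.1 and 37.3 FPKM in wild-type and at 11.8, 11.5 and 12.8 FPKM in Nlrp3-/-, means of 36.9 ± 0.735 and 12.03 ± 0.709 FPKM. Control libraries were at 0.0893, 0.0223 and 0.227 FPKM in wild-type and at 0.830, 0.936 and 0.546 FPKM in Nlrp3-/-, means of 0.113 ± 0.105 and 0.771 ± 0.202 FPKM. The genotypes did not overlap in either condition, and their order was reversed between the conditions. The mean was 3.07-fold higher in wild-type with LPS+ATP, a log2 difference of -1.54 (95% CI -1.74 to -1.35, adjusted p 9.69e-08) for Nlrp3-/- against wild-type, which was -1.65 relative to the median of all tested genes. In control the difference was 0.67 (95% CI 0.47 to 0.86, adjusted p 7.84e-05), under the fold limit, and was called at 2.12 with a pseudocount of 0.1 and at 1.40 in TPM. Il12b rose by 5.09 in wild-type and by 2.89 in Nlrp3-/- (adjusted p 7.39e-13 and 1.18e-10), and its interaction of -2.21 (95% CI -2.49 to -1.93, adjusted p 5.95e-07) was the largest in size of the 9 tested genes.

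Il12a (ENSMUSG00000027776, chr3:68690644-68698547, plus strand), whose product pairs with that of Il12b in IL-12, showed no such gap. It was at 19.2, 17.9 and 17.3 FPKM in wild-type with LPS+ATP and at 15.5, 17.0 and 21.2 FPKM in Nlrp3-/-, and these libraries overlapped. In control it was at 0.0753, 0.102 and 0.120 FPKM in wild-type and at 0.277, 0.222 and 0.231 FPKM in Nlrp3-/-, with no overlap. The genotype difference was -0.03 with LPS+ATP (adjusted p 0.822), between -0.24, after median-ratio scaling, and 0.0628 over the alternatives, with an adjusted p between 0.04814 and 0.9953, and 0.18 in control (adjusted p 0.137). The control difference was 0.79 with a pseudocount of 0.1 and 0.45 in TPM, under the fold limit in both, and its adjusted p was between 0.0003942 and 0.2659 over the alternatives. The rise was 4.12 in wild-type and 3.92 in Nlrp3-/- (adjusted p 5.48e-12 and 1.08e-11). Within a library the ratio of Il12b to Il12a, a comparison chosen after the data were seen, was 1.95, 2.01 and 2.15 in wild-type with LPS+ATP and 0.759, 0.678 and 0.604 in Nlrp3-/- with LPS+ATP. The ratios did not overlap (means 2.04 ± 0.106 and 0.680 ± 0.0773). The exact two-sided permutation p was 0.1, the smallest that 3 against 3 libraries can give. In control, at low levels, the ratio was between 0.218 and 1.89 in wild-type and between 2.37 and 4.22 in Nlrp3-/-. A transcript ratio does not give the amount of secreted IL-12, which was not measured in these libraries.

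Il23a (ENSMUSG00000025383, chr10:128296139-128298752, minus strand) was low throughout and was not tested. It was at 0.0651, 0.0264 and 0 FPKM in wild-type control, 0.0736, 0.284 and 0.0765 FPKM in wild-type with LPS+ATP, 0.0219, 0.0218 and 0 FPKM in Nlrp3-/- control, and 0.117, 0.141 and 0.183 FPKM in Nlrp3-/- with LPS+ATP. With LPS+ATP the genotypes overlapped. In those libraries its partner Il12b and its IL-12 counterpart Il12a were each at 11.5 FPKM or more.

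Il27 (ENSMUSG00000044701, chr7:126589010-126594941, minus strand) was at 44.2, 44.1 and 43.8 FPKM in wild-type with LPS+ATP and at 23.3, 22.4 and 24.8 FPKM in Nlrp3-/- with LPS+ATP, means of 44.0 ± 0.246 and 23.5 ± 1.22 FPKM. In control it was at 0.362, 0.697 and 0.751 FPKM in wild-type and at 0.735, 0.516 and 1.49 FPKM in Nlrp3-/-. The genotypes were apart with LPS+ATP and overlapped in control. The difference with LPS+ATP was -0.88 (95% CI -1.22 to -0.54, adjusted p 0.00064), under the fold limit. It was -0.99 relative to the median of all tested genes and -1.09 after median-ratio scaling, where it was called. Il27 rose by 4.82 in wild-type and by 3.71 in Nlrp3-/- (adjusted p 1.21e-10 and 1.72e-09), and the interaction of -1.11 (95% CI -1.59 to -0.63, adjusted p 0.0031) was called. Without wild-type control replicate 1 the interaction was -0.998, just short of the limit, and without Nlrp3-/- control replicate 3 it was -0.90, and neither was called. Apobr lies on the opposite strand and shares 103 exon bases, or 10.1% of those of Il27. Its means were 30.3 and 10.5 FPKM in wild-type without and with LPS+ATP and 32.0 and 12.3 FPKM in Nlrp3-/-, and whether the libraries kept the strand was not given in the sources used here.

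Ebi3 (ENSMUSG00000003206, chr17:55952640-55957022, plus strand), whose product pairs with that of Il27, was already abundant without stimulus. Control libraries were at 34.5, 38.4 and 36.0 FPKM in wild-type and at 38.2, 35.6 and 37.8 FPKM in Nlrp3-/-, and those with LPS+ATP at 84.2, 75.8 and 77.1 FPKM and at 75.5, 74.8 and 68.3 FPKM. The control libraries of the genotypes overlapped and those with LPS+ATP did not. Ebi3 rose by 1.10 in wild-type (adjusted p 6.99e-09) and changed by 0.95 in Nlrp3-/- (adjusted p 3.51e-08), under the limit, and by 1.241 after median-ratio scaling and 1.03 in TPM, where it was called. The genotype difference was 0.04 in control (adjusted p 0.639), -0.16 after median-ratio scaling, and -0.12 with LPS+ATP (adjusted p 0.109), -0.33 after median-ratio scaling, with an adjusted p between 0.0004324 and 0.35 over the alternatives. Gm16712 lies on the opposite strand and shares 270 exon bases, or 23.4% of those of Ebi3, at means between 1.49 and 2.22 FPKM in the 4 groups. The ratio of Il27 to Ebi3 within a library, also chosen after the data were seen, was 0.525, 0.581 and 0.567 in wild-type with LPS+ATP and 0.309, 0.2995 and 0.363 in Nlrp3-/- with LPS+ATP, without overlap (exact two-sided permutation p 0.1).

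**Figure D3:**
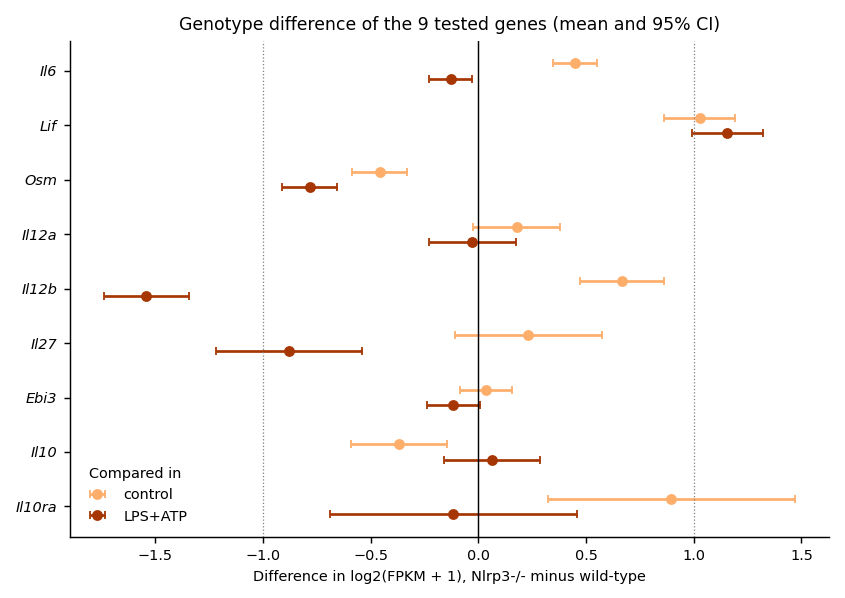
Difference in log2(FPKM + 1) between Nlrp3-/- and wild-type for the 9 tested genes, in control and with LPS+ATP, as the mean of 3 against 3 libraries with its 95% CI (bars), and the fold limit of 1 in either direction (dotted lines). Il12b stands at 0.67 in control and at -1.54 with LPS+ATP, and Lif stands to the right of the limit at 1.03 and 1.16.

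Il10 (ENSMUSG00000016529, chr1:131019845-131024974, plus strand) was at 5.23, 5.85 and 4.90 FPKM in wild-type with LPS+ATP and at 5.67, 5.20 and 5.96 FPKM in Nlrp3-/- with LPS+ATP, means of 5.33 ± 0.484 and 5.61 ± 0.382 FPKM. In control it was at 0.663, 1.01 and 1.19 FPKM in wild-type and at 0.600, 0.512 and 0.406 FPKM in Nlrp3-/-, means of 0.954 ± 0.269 and 0.506 ± 0.0970 FPKM. The genotypes overlapped with LPS+ATP, and in control every Nlrp3-/- library was below every wild-type one. The difference was 0.06 with LPS+ATP (adjusted p 0.639), -0.12 after median-ratio scaling, and -0.37 in control (adjusted p 0.0109), under the fold limit. Il10 rose by 1.70 in wild-type and by 2.13 in Nlrp3-/- (adjusted p 2.93e-08 and 5.35e-09). Its interaction was 0.43 (95% CI 0.12 to 0.75, adjusted p 0.0438, and up to 0.146 under the alternatives tried), positive where those of Il6, Osm, Il12b and Il27 were negative.

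Set against Il10 within each library with LPS+ATP, Il12b was at 7.15, 6.16 and 7.61 in wild-type and at 2.07, 2.21 and 2.15 in Nlrp3-/-, with no overlap and means of 6.97 ± 0.741 and 2.15 ± 0.0681 (exact two-sided permutation p 0.1). The ratio of Il6 to Il10 was 8.04, 7.01 and 8.53 in wild-type and 6.93, 7.27 and 6.18 in Nlrp3-/-, and these libraries overlapped (exact permutation p 0.2). Il12b stood to Il6 at 0.888, 0.879 and 0.892 in wild-type and at 0.299, 0.304 and 0.349 in Nlrp3-/-, without overlap (exact permutation p 0.1). With 3 against 3 libraries these tests cannot pass 0.05, and the ratios to or from Il12b share it with the difference given for that gene. The ratios are descriptions and not further evidence. In control, where wild-type levels were near 0, both ratios to Il10 were higher in Nlrp3-/-, without overlap: the ratio of Il12b to Il10 was between 0.0221 and 0.191 in wild-type and between 1.34 and 1.83 in Nlrp3-/-, and that of Il6 to Il10 between 0.0179 and 0.124 and between 0.71 and 1.195. The ratio of Il12b to Il6 overlapped between the genotypes in control.

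**Figure D4:**
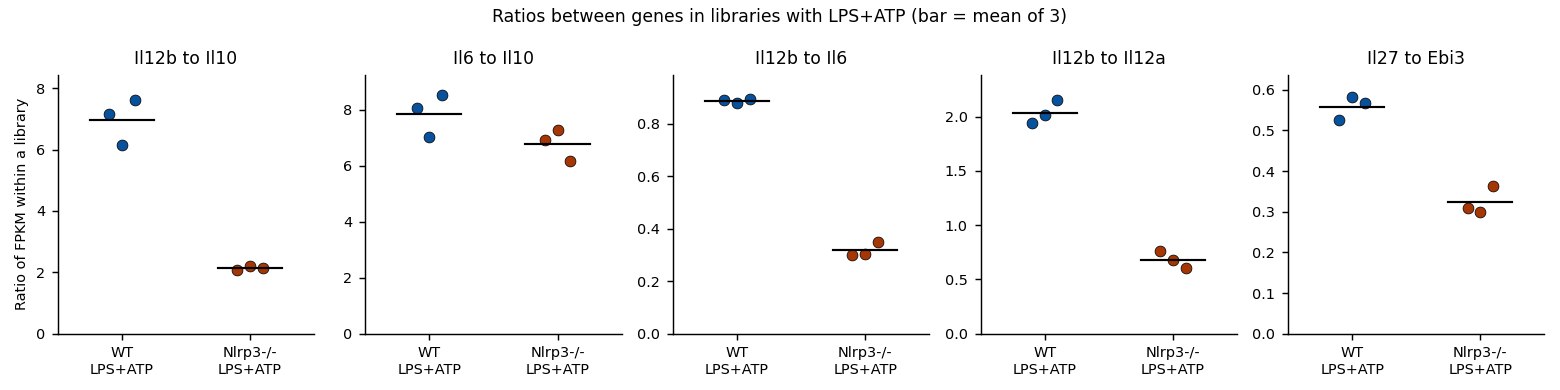
Ratios of FPKM between pairs of the genes within each library with LPS+ATP (points) with the mean of 3 (bar), each panel on its own axis from 0. The ratio of Il12b to Il10 was 6.97 in wild-type and 2.15 in Nlrp3-/-.

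Il10ra (ENSMUSG00000032089, chr9:45253837-45269149, minus strand) was at 18.5, 18.8 and 18.2 FPKM in wild-type control and at 35.8, 33.8 and 36.2 FPKM in Nlrp3-/- control, means of 18.5 ± 0.308 and 35.3 ± 1.31 FPKM. With LPS+ATP it was at 21.6, 10.3 and 22.8 FPKM in wild-type and at 11.05, 18.7 and 18.9 FPKM in Nlrp3-/-. The genotypes were apart in control and overlapped with LPS+ATP, where wild-type replicate 2 and Nlrp3-/- replicate 1 lay well below the other libraries of their groups. The control difference was 0.90 (95% CI 0.32 to 1.47, adjusted p 0.0149), under the fold limit. In Nlrp3-/- Il10ra fell by 1.11 with LPS+ATP (adjusted p 0.00246), which was -0.87 relative to the median of all tested genes, and in wild-type the difference was -0.10 (adjusted p 0.743), with the opposite sign, 0.20, after median-ratio scaling. The fall in Nlrp3-/- was not called after median-ratio scaling, at -0.82, or without Nlrp3-/- LPS+ATP replicate 1, at -0.87. The interaction was -1.01 (adjusted p 0.0641), and without wild-type LPS+ATP replicate 2 it was -1.36 and was called. The change in Nlrp3-/- is therefore not shown to differ from that in wild-type.

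Across the 12 libraries the genes whose log2 profile was most like that of Il6 were Ccl2, Il1b and Clec4e, with r of 0.999 or above, and 1366 tested genes had an r above 0.9 with Il6. For Il12b they were Arfgef1, Inpp5b and Msr1, and 1175 genes were above 0.9. For Il10 they were Gsdmd, Rnaset2a and Irgm1, and 1114 genes were above 0.9. For Il10ra the closest was Lig4, with r of 0.971, and 1 gene was above 0.9. These values carry the differences between the 4 groups and are given as descriptions without a test. Lig4 was at 1.38, 1.202 and 1.38 FPKM in wild-type with LPS+ATP and at 1.16, 1.39 and 1.41 FPKM in Nlrp3-/- with LPS+ATP, low in the same libraries as Il10ra.

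The receptor chains of these families were measured in the same cells, with 10 of 15 listed genes tested. With LPS+ATP 3 were called higher and 3 lower in wild-type (median -0.16, beside -0.25 for all tested genes), and 2 higher and 2 lower in Nlrp3-/- (median -0.22, beside -0.24). Il12rb1 and Il23r were called higher and Il6ra and Il12rb2 lower in both genotypes, and Osmr was called higher and Il6st lower in wild-type. Il12rb1 and Il23r were under 1 FPKM in every control library, and Il12rb2 in every library with LPS+ATP, so their calls follow in part from the filter. Between the genotypes 1 was called higher and 0 lower in control (median 0.14, beside 0.09) and likewise with LPS+ATP (median -0.13, beside 0.11), where limma gave 3 higher and 2 lower and 4 higher and 4 lower at an unadjusted p under 0.05. In both conditions this was Osmr, the receptor chain for OSM. Osmr was at 0.910, 0.930 and 0.839 FPKM in wild-type control, 3.80, 3.5995 and 3.23 FPKM in Nlrp3-/- control, 2.92, 2.86 and 3.57 FPKM in wild-type with LPS+ATP and 7.77, 7.62 and 7.95 FPKM in Nlrp3-/- with LPS+ATP. The genotypes did not overlap, and the differences were 1.26 and 1.10 (adjusted p 6.006e-08 and 2.352e-07), where its ligand Osm was lower. After median-ratio scaling they were 1.09, which was called, and 0.93, which was not. For the interaction 0 were called by limma, with 2 positive and 3 negative at an unadjusted p under 0.05 (median -0.07, beside 0.02). Within this list, which does not hold Il10ra, the most abundant chains were Il10rb, Il6st, Il11ra1 and Il6ra. Il6ra fell by 1.76 in wild-type and by 1.44 in Nlrp3-/- (adjusted p 5.42e-11 and 4.6e-10).

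**Figure D5:**
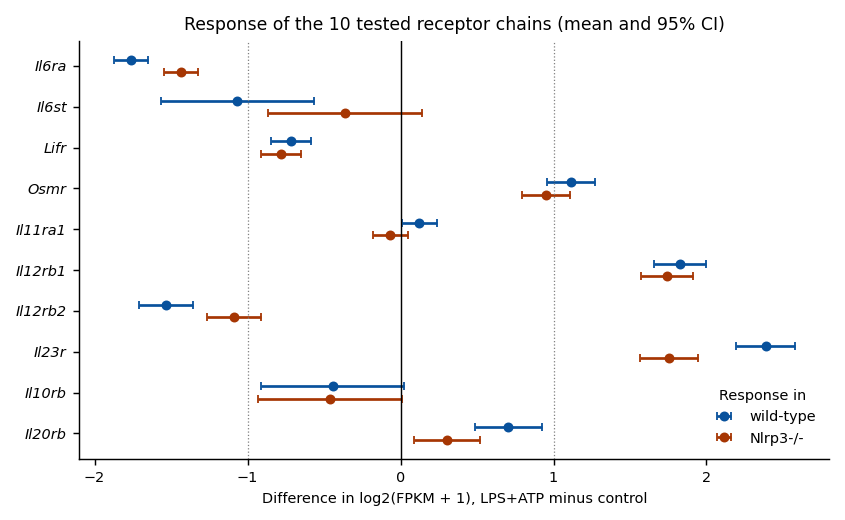
Difference in log2(FPKM + 1) between LPS+ATP and control for the 10 tested receptor chains in wild-type and in Nlrp3-/-, as the mean of 3 against 3 libraries with its 95% CI (bars), and the fold limit of 1 in either direction (dotted lines). Il6ra stands at -1.76 in wild-type and at -1.44 in Nlrp3-/-.

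Of the other ligands of these families 3 of 10 were tested, and 2 were called higher with LPS+ATP in wild-type, Clcf1 and Il19, and 1 in Nlrp3-/-, Il19. Il19 was at 0.0865 FPKM or less in every control library, so its calls follow in part from the filter. The medians were 1.03 and 0.66, beside -0.25 and -0.24. For genotype limma called 0 in control (1 higher and 0 lower at an unadjusted p under 0.05, median 0.28, beside 0.09), 0 with LPS+ATP (0 and 0, median 0.06, beside 0.11) and 0 for the interaction (0 and 0, median -0.22, beside 0.02). Clcf1, the most abundant, averaged 1.34 and 3.85 FPKM in wild-type and 2.51 and 4.55 FPKM in Nlrp3-/-, without and with LPS+ATP, and its libraries with LPS+ATP overlapped between the genotypes. Il11, which was not tested, reached a mean of 1.27 FPKM in Nlrp3-/- with LPS+ATP.

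Downstream of the receptors, 11 of 12 JAK, STAT and feedback genes were tested. With LPS+ATP 5 were called higher and 0 lower in wild-type (9 higher and 2 lower by limma at an unadjusted p under 0.05, median 0.94, beside -0.25) and 4 higher and 0 lower in Nlrp3-/- (8 higher and 3 lower, median 0.72, beside -0.24). Among those called, Socs1 in both genotypes and Cish in wild-type were under 1 FPKM in every control library, so their calls follow in part from the filter. For genotype limma called 0 in control (6 higher and 1 lower, median 0.16, beside 0.09) and 0 with LPS+ATP (3 higher and 4 lower, median -0.04, beside 0.11), and for the interaction 0 were positive and 1 was negative (2 and 6, median -0.22, beside 0.02). That gene was Socs3, a feedback inhibitor of gp130 signalling and a target of STAT3. Socs3 averaged 8.87 and 159 FPKM in wild-type and 17.8 and 135 FPKM in Nlrp3-/-, without and with LPS+ATP, and its interaction was -1.17 (adjusted p 6.148e-07). Jak2 and Jak1, also among the abundant genes of the list, averaged 105 and 46.6 FPKM in wild-type with LPS+ATP and 119 and 45.3 FPKM in Nlrp3-/-.

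Of the genes that IL-10 is known to induce, 9 of 10 were tested. With LPS+ATP 5 were called higher and 1 lower in wild-type (median 1.28, beside -0.25) and 3 higher and 1 lower in Nlrp3-/- (median 0.79, beside -0.24). For genotype limma called 0 in control (6 higher and 1 lower at an unadjusted p under 0.05, median 0.14, beside 0.09) and 0 with LPS+ATP, where 1 was higher and 7 lower at an unadjusted p under 0.05 (median -0.19, beside 0.11). For the interaction 0 were positive and 1, Socs3, was negative (1 and 6, median -0.29, beside 0.02). Il1rn averaged 149.6 FPKM in wild-type libraries and 102 FPKM in Nlrp3-/- with LPS+ATP, Slpi 523 and 475 FPKM, and Il4ra 48.8 and 41.5 FPKM, while Il10 itself overlapped between the genotypes. LPS induces several of these genes without IL-10, and signalling by IL-10 was not measured.

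All 15 listed transcription factors of these promoters were tested. With LPS+ATP 5 were called higher and 1 lower in wild-type (median 0.69, beside -0.25) and 5 higher and 1 lower in Nlrp3-/- (median 0.44, beside -0.24). In control 1 was called higher in Nlrp3-/- and 0 lower (6 higher and 2 lower by limma at an unadjusted p under 0.05, median 0.22, beside 0.09). It was Nfkbiz, which encodes a nuclear cofactor of NF-kB at the Il6 and Il12b promoters, at 2.86, 2.56 and 2.63 FPKM in wild-type and 7.29, 7.25 and 7.16 FPKM in Nlrp3-/-, without overlap (1.16, adjusted p 3.02e-09, and 0.98 after median-ratio scaling, which was not called). With LPS+ATP Nfkbiz averaged 19.1 and 30.2 FPKM, a difference of 0.63 (adjusted p 5.164e-07) under the fold limit. With LPS+ATP limma called 0 (6 higher and 5 lower, median -0.05, beside 0.11), and for the interaction 0 (2 positive and 6 negative, median -0.14, beside 0.02). The most abundant were Cebpb, at means of 394 FPKM in wild-type libraries and 319 FPKM in Nlrp3-/- with LPS+ATP, Atf3, at 192 and 95.7 FPKM, Nfkb2, at 87.3 and 95.5 FPKM, and Irf1, at 94.8 and 61.3 FPKM, whose libraries overlapped between the genotypes. The libraries of Atf3 did not overlap, and its difference of -0.99 by limma (adjusted p 1.622e-06) was just under the fold limit. Median-ratio scaling shifted the median of this comparison by -0.17.

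All 10 listed regulators of the stability of cytokine mRNA were tested as well. With LPS+ATP 3 were called higher and 2 lower in each genotype (median 0.11 in wild-type, beside -0.25, and -0.09 in Nlrp3-/-, beside -0.24). For genotype limma called 0 in control (5 higher and 1 lower at an unadjusted p under 0.05, median 0.14, beside 0.09), and with LPS+ATP 1 higher and 0 lower (3 higher and 2 lower, median 0.09, beside 0.11). It was Zfp36l1, which encodes a protein of the tristetraprolin family that promotes decay of mRNA with AU-rich elements, at 4.24, 3.84 and 4.31 FPKM in wild-type and 9.35, 9.99 and 9.75 FPKM in Nlrp3-/-, without overlap (1.06, adjusted p 1.517e-08, and 0.89 after median-ratio scaling, which was not called). For the interaction limma called 0 (2 positive and 3 negative, median -0.18, beside 0.02). With LPS+ATP Zfp36 averaged 44.3 and 52.8 FPKM, Zfp36l2 23.5 and 26.3 FPKM and Zc3h12a 38.9 and 42.1 FPKM in wild-type and Nlrp3-/-. The decay of no transcript was measured.

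Promoter sequence, from 250 bases before to 50 bases after an annotated start in the RefSeq annotation of GRCm38.p6, was held for 5 of the 10 genes, and 6 promoters were read. That of Il6 (chr5:30012864-30013163, plus strand) held a match to the NF-kB motif GGANTTTCC 43 bases before the start, written as position -43, and, both on the opposite strand, to the C/EBP motif TTGCNNAA at -128 and the AP-1 motif TGACTCA at -249. That of Lif (chr11:4257318-4257617, plus strand) held the AP-1 motif at -228, and the promoter of the downstream start of Il12a held the NF-kB motif on the opposite strand at 18. The promoters of Il12b (chr11:44399813-44400112, plus strand) and Ebi3 and that of the upstream start of Il12a held none of the motifs sought. Of 32851 promoters in the annotation 1.25% held the NF-kB motif, 10.8% the C/EBP motif, 5.20% the AP-1 motif, 8.56% the IRF motif GAAANNGAA and 13.6% the TATA box TATAAA. A match is a description of the sequence and not evidence of binding. Capitals mark the matches, which read as the reverse complement of the motif where they are on the opposite strand.

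Il6: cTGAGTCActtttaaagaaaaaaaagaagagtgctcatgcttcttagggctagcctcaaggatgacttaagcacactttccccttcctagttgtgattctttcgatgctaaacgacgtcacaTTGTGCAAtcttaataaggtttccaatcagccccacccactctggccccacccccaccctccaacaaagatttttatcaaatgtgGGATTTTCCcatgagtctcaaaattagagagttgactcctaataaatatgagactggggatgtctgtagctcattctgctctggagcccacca

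Lif: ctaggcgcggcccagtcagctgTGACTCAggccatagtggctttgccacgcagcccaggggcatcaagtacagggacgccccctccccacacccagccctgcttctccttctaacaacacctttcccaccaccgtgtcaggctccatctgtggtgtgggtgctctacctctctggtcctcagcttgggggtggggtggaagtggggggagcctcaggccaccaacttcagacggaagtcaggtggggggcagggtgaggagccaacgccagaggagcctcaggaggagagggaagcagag

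Il12b: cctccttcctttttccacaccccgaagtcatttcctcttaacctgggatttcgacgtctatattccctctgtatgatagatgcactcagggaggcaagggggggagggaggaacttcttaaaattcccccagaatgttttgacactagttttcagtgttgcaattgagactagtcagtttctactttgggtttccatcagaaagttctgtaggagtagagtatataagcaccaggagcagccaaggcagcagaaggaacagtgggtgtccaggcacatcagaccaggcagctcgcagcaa

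Several limits apply to these values. Each genotype differed from the other in sex-linked RNA, in Nnt and in the markers of other cell types, mainly fibroblasts and granulocytes, so a genotype difference in a cytokine transcript cannot be assigned to the loss of Nlrp3. No comparison separates LPS from the ATP that followed it, so their effects cannot be told apart, since no library had either alone. Transcripts were measured at a single time, and cytokine protein was not analysed here. Adding 1 to FPKM shrinks the fold changes of genes that were near 0 in control, Il6, Il12a and Il12b among them. The same holds for genes near 0 with LPS+ATP, such as the granulocyte marker Mpo.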

How the data were processed

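RNA-seq values of the 12 libraries were used as the authors deposited them, as FPKM for 55335 genes, with read alignment and counting by the authors. The submitters' notes name GRCm39 and DESeq2 1.24.0, and coordinates here are from GENCODE M21 on GRCm38, which held 55154 of the gene IDs. Genes with at least 1 FPKM in at least 3 libraries were tested, 12622 in all, on log2(FPKM + 1) with limma 3.58.1 in R 4.3.3, as 1 fit of the 4 group means with empirical Bayes moderation, 5 contrasts and Benjamini-Hochberg adjustment within each. The fit was tested on simulated data. Ratios were compared by exact two-sided permutation tests in Python 3.11.15 (scipy 1.17.1), for which 0.1 is the smallest p. Promoters were searched for exact motif matches on both strands. Every gene of the 10 is named. Of each further list, the 4 most abundant genes and any gene called between the genotypes or for the interaction are named, except for some that are not reported here, and other names were chosen after their values were seen. The 10 genes, the lists and the comparisons were chosen with earlier results of these data known, and, except for the ratios of Il12b to Il12a and of Il27 to Ebi3, were fixed before the values were examined. Read counts were not given, and relative depth, from the smallest steps between FPKM values, was between 1 and 1.22. Itgam has 2 entries, of which the first was used. Alternatives were a pseudocount of 0.1, no fold limit, other filters, TPM, median-ratio scaling, a replicate block, a fit of the compared groups alone, limma without a variance trend and leaving out each library.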

Additional observations from a re-analysis of the deposited data

Results flagged for a closer look

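For 5 of the 9 tested genes the change with LPS+ATP differed between the genotypes by limma's interaction term at an adjusted p under 0.05, as it did for 27.7% of all tested genes. The interaction, as the log2 change in Nlrp3-/- minus that in wild-type, was -0.58 for Il6 (adjusted p 7.17e-05), -0.33 for Osm (adjusted p 0.0122), -2.21 for Il12b (adjusted p 5.95e-07), -1.11 for Il27 (adjusted p 0.0031) and 0.43 for Il10 (adjusted p 0.0438, and up to 0.146 under the alternatives tried). For Il6 and Il10 the genotypes differed more in control than with LPS+ATP. For the same term 4 of the 6 tested granulocyte markers were called negative, against 1.43% of all tested genes. They were Mpo (-3.58), Elane (-2.72), Prtn3 (-2.13) and Lcn2 (-2.08). Without and with LPS+ATP, Mpo averaged 2.09 and 0.0802 FPKM in wild-type and 53.3 and 0.585 FPKM in Nlrp3-/-. Elane averaged 4.14 and 0.239 FPKM against 65.5 and 1.44 FPKM, and Prtn3 2.39 and 0.437 FPKM against 32.7 and 2.27 FPKM. Adding 1 to FPKM shrinks falls to such low values, so the size of these interactions depends on it. Lcn2 instead rose in both genotypes, from 9.96 to 218 FPKM and from 43.2 to 208 FPKM. Of the 6 fibroblast and the 8 macrophage markers 0 were called for it. What lay behind these differences was not tested.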

How the results depend on the processing

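The direction and the call of the log2 changes of the 9 tested genes were compared between the reported settings and each alternative other than no fold limit. Of 891 such values, 857 kept both, 8 lost the call, 14 gained it and 12 changed sign. Leaving out 1 library at a time, the number of genes called was 8 to 8 for LPS+ATP in wild-type, 7 to 7 in Nlrp3-/-, 0 to 1 for genotype in control, 2 to 2 for genotype with LPS+ATP and 1 to 3 for the interaction. For genotype in control, where Lif was called, it was 0 with median-ratio scaling (Lif 0.88), without wild-type control replicate 3 (Lif 0.97) or without Nlrp3-/- control replicate 1 (Lif 0.96), 3 with a pseudocount of 0.1 and 3 in TPM (Il6 and Il12b added), and 6 with no fold limit. With no fold limit it was 5 for genotype with LPS+ATP and 5 for the interaction. The interaction of Il27 was not called without wild-type control replicate 1 (-0.998) or Nlrp3-/- control replicate 3 (-0.90), and that of Il10ra was called without wild-type LPS+ATP replicate 2 (-1.36). With a replicate block the numbers called were 8, 7, 1, 2 and 2, as reported. Signs changed with median-ratio scaling for Il10ra with LPS+ATP in wild-type (0.20), Ebi3 for genotype in control (-0.16) and Il10 for genotype with LPS+ATP (-0.12), and for the interaction of Lif with a pseudocount of 0.1 (-0.79) and in TPM (-0.42). Leaving out a library changed the sign for Il10ra with LPS+ATP in wild-type (range -0.29 to 0.25) and, for genotype with LPS+ATP, for Il12a (-0.15 to 0.0628) and Il10ra (-0.46 to 0.12). The cause was not tested. The ratio of Il12b to Il10, with 1 added to both FPKM, was 6.02 in wild-type and 1.97 in Nlrp3-/-. The effect of depth on genes under 1 FPKM could not be measured without counts.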
